A study of Mus musculus with 3 samples.

Results

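The genes described here build, load and regulate the classical major histocompatibility complex (MHC) class I molecules of the mouse. They are B2m, H2-K1 and H2-D1, which encode the chains of the molecule, Tap1, Tap2, Tapbp, Psmb8 and Psmb9, which prepare and load its peptides, and Nlrc5, which regulates their transcription. The 9 genes were chosen by name, and all 9 were found among the 19091 genes of the count tables. They were followed in adult liver of C57BL/6 mice, by Drop-seq, a method that captures single cells with barcoded beads in droplets and counts their mRNA molecules through unique molecular identifiers (UMIs). Each of the 3 libraries held the cells of 3 livers pooled before sequencing. The control library came from sham-operated mice taken after 1 day, and its punch came from the equivalent uninjured area. The other libraries came from livers taken 1 day and 7 days after irreversible electroporation (IRE), an injury in which 8 pulses of 50 ms, 1 s apart, were passed between electrodes on both faces of a lobe. The labels give 75 V, whereas the methods give a lower voltage, so that the voltage is in doubt. The electroporated area was cut out with a 4 mm punch, digested to single cells and freed of red blood cells, and no sorting step is named.

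An MHC class I molecule consists of a heavy chain, here H2-K1 or H2-D1, and the light chain beta-2-microglobulin, encoded by B2m, and carries a short peptide from inside the cell to its surface, where CD8+ T cells read it. The peptides are cut by the proteasome, in which the catalytic subunits Psmb8 and Psmb9 take the places of Psmb5 and Psmb6 in immune cells and in cells exposed to interferon. The Tap1 and Tap2 transporter carries the peptides into the endoplasmic reticulum, where tapasin, encoded by Tapbp, holds the empty molecule at the transporter until a peptide fits. Nlrc5 is drawn to class I promoters by factors bound at the X and Y boxes, and interferon gamma is a known inducer of the whole pathway. In liver, Kupffer cells, dendritic cells and sinusoidal endothelial cells are known to present antigen on class I, and hepatocytes are known for low levels of it.

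RefSeq promoter windows, of 250 bases before and 50 bases after an annotated start on GRCm38.p6, were at hand for 7 of the 9 genes, without Tap2 and Nlrc5. The 250 bases before the start are shown for the 3 chain genes and for Tap1 and Psmb8, because the libraries differed most plainly in the balance between these 2 groups. Each is written 5′ to 3′ on the strand of its gene, and capitals mark matches to the motifs named after them.
B2m, chr2:122147437-122147686, plus strand: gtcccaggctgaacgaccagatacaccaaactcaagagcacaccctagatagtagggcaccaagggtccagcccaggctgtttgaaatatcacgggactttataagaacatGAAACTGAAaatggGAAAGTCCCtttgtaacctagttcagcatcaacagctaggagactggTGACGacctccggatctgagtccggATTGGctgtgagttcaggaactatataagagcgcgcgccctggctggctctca
H2-K1, chr17:34000348-34000597, minus strand: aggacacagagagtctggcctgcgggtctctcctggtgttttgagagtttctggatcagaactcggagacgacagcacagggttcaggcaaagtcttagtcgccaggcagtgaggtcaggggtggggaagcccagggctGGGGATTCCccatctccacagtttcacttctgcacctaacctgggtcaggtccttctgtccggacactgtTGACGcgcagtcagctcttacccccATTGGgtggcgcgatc
H2-D1, chr17:35262844-35263093, plus strand: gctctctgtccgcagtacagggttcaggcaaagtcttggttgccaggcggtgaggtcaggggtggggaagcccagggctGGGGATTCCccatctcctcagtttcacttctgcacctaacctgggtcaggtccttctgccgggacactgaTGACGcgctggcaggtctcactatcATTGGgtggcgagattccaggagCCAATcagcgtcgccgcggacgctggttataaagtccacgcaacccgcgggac
Tap1, chr17:34187306-34187555, plus strand: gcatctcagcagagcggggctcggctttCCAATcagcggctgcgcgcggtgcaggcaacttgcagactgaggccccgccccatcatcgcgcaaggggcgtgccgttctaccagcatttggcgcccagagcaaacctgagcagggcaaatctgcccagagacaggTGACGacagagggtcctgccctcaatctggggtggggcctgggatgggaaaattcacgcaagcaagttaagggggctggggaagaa
Psmb8, chr17:34197945-34198194, plus strand: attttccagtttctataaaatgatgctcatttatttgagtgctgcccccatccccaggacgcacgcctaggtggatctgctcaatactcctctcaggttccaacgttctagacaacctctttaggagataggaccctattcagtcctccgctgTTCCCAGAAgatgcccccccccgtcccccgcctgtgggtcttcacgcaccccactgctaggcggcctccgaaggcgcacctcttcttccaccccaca
Motifs were searched on both strands over the whole windows, and positions are those of the first base of a match relative to the annotated start. The X2 box core TGACG was found in 5 of the 7 windows, at -78 and 45 in B2m, -41 in H2-K1, -101 in H2-D1, -86 in Tap1 and -144 in Psmb9, and 20.8% of all 32851 windows held it. The Y box CCAAT was found in 6 of the 7 windows, all but that of Psmb8, and in 37.4% of all windows. A kappaB motif, written GGGNATTCC or GGGANTTTC, lay in the windows of all 3 chain genes, at -125 in B2m, -111 in H2-K1 and -171 in H2-D1, and in none of the 4 windows of the peptide genes, against 1.88% of all windows. The interferon-stimulated response element core GAAANNGAA was matched in B2m alone, at -139, against 8.56% of all windows, and the gamma-activated site TTCNNNGAA in Psmb8 alone, at -97, against 8.30%. Only exact matches to these letters were counted, so that the other windows cannot be taken to lack either element. The windows of Tap1 and Psmb9 lie head to head and share 275 bases, so that their matches are not independent. Those of H2-K1 and H2-D1 are alike in sequence around the kappaB and X2 matches, so that these are not independent either. B2m alone matched the GGGANTTTC form. No match overlapped a match of another motif, and the second annotated start of H2-K1, close to the first, holds the same matches in its window. These matches describe letters in a window and not the binding of a factor.

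A barcode counted as a cell from 200 detected genes upward, and there were 10386 control cells, 9253 cells at 1 day and 5624 cells at 7 days, with 8013800, 6107866 and 3058967 UMIs. Mitochondrial transcripts took 20.5%, 21.7% and 4.10% of these UMIs, and between 44 and 149 barcodes were shared by a pair of libraries and 13 by all 3. Cells were placed in a class when at least 2 markers of it and more markers of it than of any other class were detected, and the class names below stand for these gates, so that Kupffer cells, for example, are Kupffer-like barcodes. The gates took 54.4%, 56.2% and 65.5% of the cells, among them 1585, 2932 and 149 Kupffer cells and 310, 51 and 2054 neutrophils. In the control library the wound macrophage gate rested mostly on Gpnmb and Trem2, found in 83.2% and 79.2% of its cells, and at 7 days on Arg1 and Ccl2, found in 89.5% and 84.1%, so that it held unlike cells in the 2 libraries. Levels are given as UMIs per 1000000 UMIs (UPM) with an exact Poisson 95% interval, and ratios of levels with an exact conditional 95% interval in brackets. These intervals cover counting error only. Each condition had a single library, so that nothing was tested, cells were not taken as replicates, and differences between livers, libraries and conditions cannot be told apart. In a library that mixes cell types, fewer cells of a type and less RNA per cell cannot be told apart either.

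The 2 groups of genes went apart after IRE: chain transcripts were higher and peptide-processing transcripts were lower than in the control library. The chain genes together reached 7520 UPM in the control library, 8372 at 1 day and 9851 at 7 days, that is, 1.11 (1.10 to 1.13) and 1.31 (1.29 to 1.33) times the control. The 5 processing genes Tap1, Tap2, Tapbp, Psmb8 and Psmb9 together stood at 1214, 730.0 and 952 UPM, which was 0.601 (0.580 to 0.623) and 0.784 (0.752 to 0.817) times the control. In UPM 1 day was thus the low point of the processing genes and 7 days the high point of the chains. The high point of the chains depended on the denominator. Without mitochondrial UMIs in it, the chain ratio was higher at 1 day than at 7 days, as given at the end. The number of processing UMIs per chain UMI, which needs no scaling to the library, was 0.161 (0.158 to 0.165) in the control library, 0.0872 (0.0845 to 0.0899) at 1 day and 0.0966 (0.0930 to 0.100) at 7 days.

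Among the chain genes, B2m, the light chain shared by all class I molecules, stood at 3659 UPM in the control library, 4120 at 1 day and 5105 at 7 days. Its ratios to control were 1.13 (1.11 to 1.15) and 1.40 (1.37 to 1.42). H2-D1, 1 of the 2 heavy chains, measured 2295, 2621 and 3366 UPM, with ratios of 1.14 (1.12 to 1.17) and 1.47 (1.43 to 1.50). Both were thus lowest in the control library and highest at 7 days. H2-K1, the other heavy chain, measured 1566, 1631 and 1380 UPM, with ratios of 1.04 (1.01 to 1.07) and 0.881 (0.851 to 0.912), and was the chain that was lowest at 7 days. At 1 day the direction of H2-K1 turned to a ratio of 0.945 when the classes were weighted by their control shares. H2-D1 UMIs per H2-K1 UMI went from 1.47 (1.43 to 1.50) in the control library to 1.61 (1.57 to 1.65) and 2.44 (2.35 to 2.53). H2-K1 and H2-D1 are near-identical copies of a gene family, the tables were built from reads with a mapping quality of at least 10, and reads that both genes share are therefore a limit on each of these values.

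Among the processing genes, Psmb8, the immunoproteasome subunit that replaces Psmb5, had the widest range, with 595 UPM in the control library, 282 at 1 day and 451 at 7 days. The ratios were 0.473 (0.448 to 0.500) and 0.758 (0.713 to 0.805). Psmb9, which replaces Psmb6, measured 227, 152 and 170.0 UPM, with ratios of 0.667 (0.616 to 0.722) and 0.747 (0.677 to 0.824). In UPM both subunits were highest in the control library and lowest at 1 day. Without mitochondrial UMIs in the denominator, all log2 ratios to control moved by 0.02 at 1 day and by -0.27 at 7 days. The log2 ratios of 7 days to 1 day, 0.16 for Psmb9, 0.23 for Tap1 and 0.17 for Tapbp, were smaller than that shift. Which of the 2 times was lower thus depended on the denominator for these genes, and not for Psmb8 at 0.68 or Nlrc5 at 0.59. Tap1, the first subunit of the peptide transporter, measured 127, 79.6 and 93.5 UPM, with ratios of 0.625 (0.559 to 0.696) and 0.734 (0.641 to 0.837). Its partner Tap2 measured 62.6, 54.8 and 55.6 UPM, and both of its intervals, 0.760 to 1.01 and 0.741 to 1.06, held 1, so that a difference of Tap2 was not detectable at this depth. Tapbp, the tapasin that bridges transporter and heavy chain, lay between them with 201, 162 and 182 UPM and ratios of 0.805 (0.743 to 0.872) and 0.902 (0.818 to 0.994). Nlrc5, the transactivator of class I genes, was the rarest of the 9 with 257, 89 and 67 UMIs in all, or 32.1, 14.6 and 21.9 UPM. Its ratios were 0.454 (0.353 to 0.580) and 0.683 (0.514 to 0.897), so that it followed Psmb8 and not the chains. The 1 day ratio of Nlrc5 was 0.331 over barcodes with at least 500 genes and 0.686 with the classes weighted by their control shares.

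**Figure D1:**
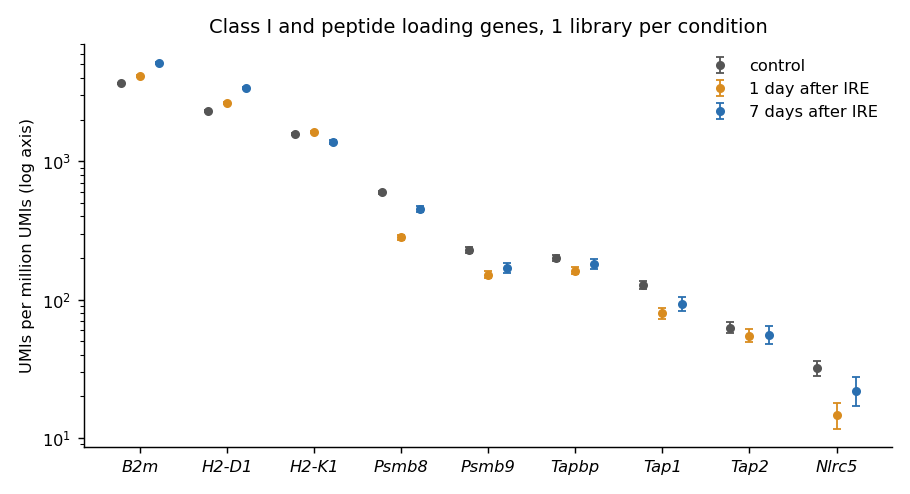
Levels of the 9 genes in the 3 libraries, in UPM on a log axis, with exact Poisson 95% intervals that cover counting error only. B2m and H2-D1 step up from control to 7 days, while Psmb8, Psmb9, Tap1 and Nlrc5 are lowest at 1 day in UPM. For Psmb9 and Tap1 that order depends on the denominator.

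Set against all genes with at least 50 UMIs over the libraries compared, 6 of the 9 members had a ratio below 1 at 1 day, as did 46.8% of 11357 genes. Psmb8 and Nlrc5, 2 of the 9, were at least 2-fold lower at 1 day, as were 5.86% of all genes, and none of the 9 was at least 2-fold higher, as were 12.2%. Psmb8 came just short of that fold under median-of-ratios size factors and with weighted classes, at 0.502 and 0.507. At 7 days 7 of the 9 had a ratio below 1, beside 60.0% of 10227 genes, none was at least 2-fold lower, beside 21.8%, and none at least 2-fold higher, beside 8.79%. The median log2 ratio of the members was -0.31 at 1 day, where that of all genes was 0.04, and -0.18 at 7 days, where that of all genes was -0.21. The members as a whole therefore stood below the median gene at 1 day and close to it at 7 days, with a median of 0.17 and 0.48 for the chains and of -0.58 and -0.40 for the processing genes at the 2 times. With mitochondrial UMIs left out of the denominator, the median of all genes moved by 0.02 at 1 day and by -0.27 at 7 days on the log2 scale, and the 7 day ratio of the chains became 1.09 and that of the processing genes 0.650.

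The share of cells with a UMI of each gene was compared at a fixed depth of 300 UMIs per cell, drawn at random, without the 209, 298 and 545 cells below that depth. H2-D1 was seen in 47.1%, 52.5% and 59.9% of the thinned cells and H2-K1 in 37.7%, 37.7% and 32.1%, against 70.0%, 71.3% and 74.9% and against 60.1%, 57.0% and 45.3% without thinning. B2m was seen in 63.0%, 65.8% and 68.5%, and in 83.0%, 81.1% and 80.6% without thinning, where the order went the other way. Psmb8 was seen in 15.7%, 8.01% and 11.5%, and in 31.6%, 15.2% and 18.6% without thinning. No class could be taken to lack the members altogether. In the hepatocyte gate of the 1 day library, which held 57 cells with a median of 949 UMIs, beside 509 over all cells, Psmb8 was seen in 3.51% (exact binomial interval 0.428 to 12.1) of the thinned cells.

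Transcripts of the members were also found in barcodes with under 200 genes, which may hold small cells or free RNA. These barcodes held B2m at 1933, 2623 and 3371 UPM, H2-D1 at 1293, 1953 and 3422, and the 5 processing genes at 743, 516 and 676 in the control, 1 day and 7 day libraries. The level of H2-D1 in these barcodes at 7 days was as high as in the kept cells, where it was 3366. In the 130 barcodes with under 100 genes at 7 days it was lower, at 2209 UPM (1571 to 3020), from 39 UMIs. The Kupffer marker Clec4f was seen in 9.85%, 30.2% and 2.41% of the cells outside the Kupffer gate, and S100a8 and S100a9, which are neutrophil transcripts, took 0.109%, 0.0287% and 0.860% of the UMIs of T cells. Both were highest in the library with the most cells of that class, and nothing was subtracted. Their part in the levels of the other classes was not tested.

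Among the 15 classes of the control library with at least 20 cells, mature, type 1 and type 2 dendritic cells had the highest levels of the processing genes, although the interval of type 2, 1639 UPM (1176 to 2223), overlapped that of monocytes, while plasmacytoid dendritic cells, with 1200 UPM (896 to 1574), did not stand out, and the chains followed another order. Mature dendritic cells, which carry antigen to lymph nodes, had the highest level of both groups, with 12319 UPM (11234 to 13481) of the chains and 2578 (2096 to 3139) of the processing genes, in 46 cells. Type 1 dendritic cells, known for showing peptides of engulfed cells on class I, came next for the processing genes with 2490 (2272 to 2723), although their chain level of 5721 (5388 to 6069) was lower than that of 13 of the 15 classes. Their Psmb8 level of 1312 (1156 to 1484) and that of mature dendritic cells, 1120 (810 to 1508), did not differ beyond their intervals. The interval of monocytes, 896 (817 to 982), overlapped that of mature dendritic cells and not that of type 1 dendritic cells, and Kupffer cells at 720 (679 to 764) were below both. Nlrc5 was led by mature dendritic cells with 234 UPM (107 to 445), a value that rests on 9 UMIs.

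**Figure D2:**
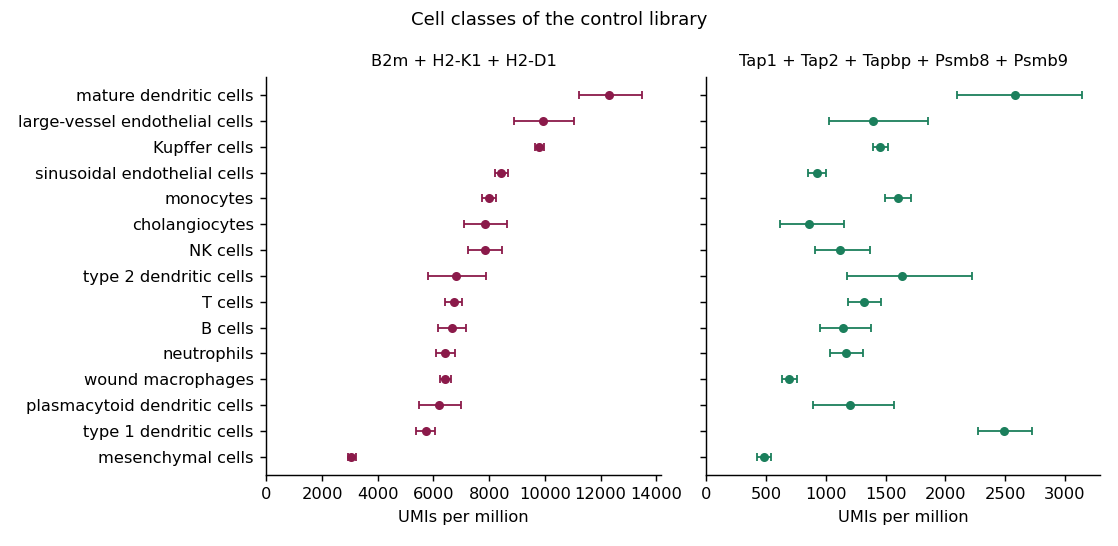
Summed levels of the chain genes (left) and the 5 processing genes (right) in the 15 classes of the control library, in UPM with exact Poisson 95% intervals. Type 1 dendritic cells are second from the bottom for the chains and second from the top for the processing genes.

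For the chains, large-vessel endothelial cells with 9930 UPM (8894 to 11055) and Kupffer cells with 9800 (9646 to 9956) followed mature dendritic cells and did not differ beyond their intervals. Sinusoidal endothelial cells, which line the liver capillaries, held 8426 (8196 to 8660) of the chains with only 926 (851 to 1006) of the processing genes, whereas monocytes held 7992 (7751 to 8239) and 1600 (1493 to 1713). Mesenchymal cells were lowest for both groups, with 3057 (2916 to 3204) and 484 (429 to 544). Hepatocytes were gated in the 1 day library alone, where they had 6001 UPM (5495 to 6541) of the chains, the lowest of 11 classes but within the intervals of B cells and neutrophils, and 162 (88.7 to 272) of the processing genes, from 14 UMIs. H2-K1 outnumbered H2-D1 in them, with 0.537 (0.404 to 0.711) H2-D1 UMIs per H2-K1 UMI, where all kept barcodes had 1.61.

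The division between chains and processing genes was present within Kupffer cells, the resident macrophages of the liver, at 1 day. Their chain level was 9800 UPM in the control library and 9149 at 1 day, a ratio of 0.934 (0.914 to 0.953), and their processing level was 1456 and 746, a ratio of 0.513 (0.481 to 0.546). All 9 members had a ratio below 1, beside 54.9% of 7521 genes, although H2-D1 stood at 0.997 (0.960 to 1.03) and at 1.04 with mitochondrial UMIs left out of the denominator. Psmb8 at 0.423 (0.385 to 0.465), Nlrc5 at 0.441 (0.280 to 0.688) and Tap1 at 0.459 (0.376 to 0.559), 3 of the 9, were at least 2-fold lower, beside 4.59% of all genes, and none was at least 2-fold higher, beside 13.3%. The median log2 ratio was -0.55 for the members and -0.08 for all genes. At 7 days, with 149 Kupffer cells left, 6 of the 9 were below 1, beside 46.2% of 4351 genes, the chains stood at 1.24 (1.17 to 1.31) and the processing genes at 0.721 (0.595 to 0.865). Kupffer cells held 0.149 (0.142 to 0.155) processing UMIs per chain UMI in the control library, 0.0816 (0.0776 to 0.0857) at 1 day and 0.0864 (0.0711 to 0.104) at 7 days.

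Sinusoidal endothelial cells also held fewer processing transcripts per chain transcript at 1 day, with 0.110 (0.101 to 0.120) in the control library and 0.0718 (0.0662 to 0.0778). Unlike in Kupffer cells, the chain ratio was above 1. The chains stood at 1.07 (1.03 to 1.11) and the processing genes at 0.700 (0.624 to 0.785) times the control. Tap1 had the lowest ratio of the processing genes there, 0.507 (0.368 to 0.697), from 90 and 75 UMIs, while Psmb8 stood at 0.730 (0.601 to 0.887). Of the 8 members with at least 50 UMIs, 6 had a ratio below 1, beside 53.3% of 4623 genes, and none was at least 2-fold lower, beside 2.40%. Within the sinusoidal gate the marker Clec4g was seen in 83.1% of control cells and 86.3% at 1 day, and Lyve1 in 60.3% and 45.5%. Outside the gate Clec4g was seen in 6.80% and 26.7% of cells. The part of these differences in the ratios was not tested. Type 1 dendritic cells had chains at 1.25 (1.13 to 1.39) and processing genes at 0.701 (0.571 to 0.855) times the control at 1 day, with Psmb8 at 0.549 (0.399 to 0.742) but Psmb9 at 0.897 (0.617 to 1.28). In plasmacytoid dendritic cells, a known source of type I interferon, the interval of the processing genes held 1, at 1.28 (0.881 to 1.87), and the chains stood at 1.45 (1.24 to 1.70). The processing ratio of B cells was 0.354 (0.211 to 0.566), the lowest of 10 classes, which rests on 21 UMIs at 1 day.

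**Figure D3:**
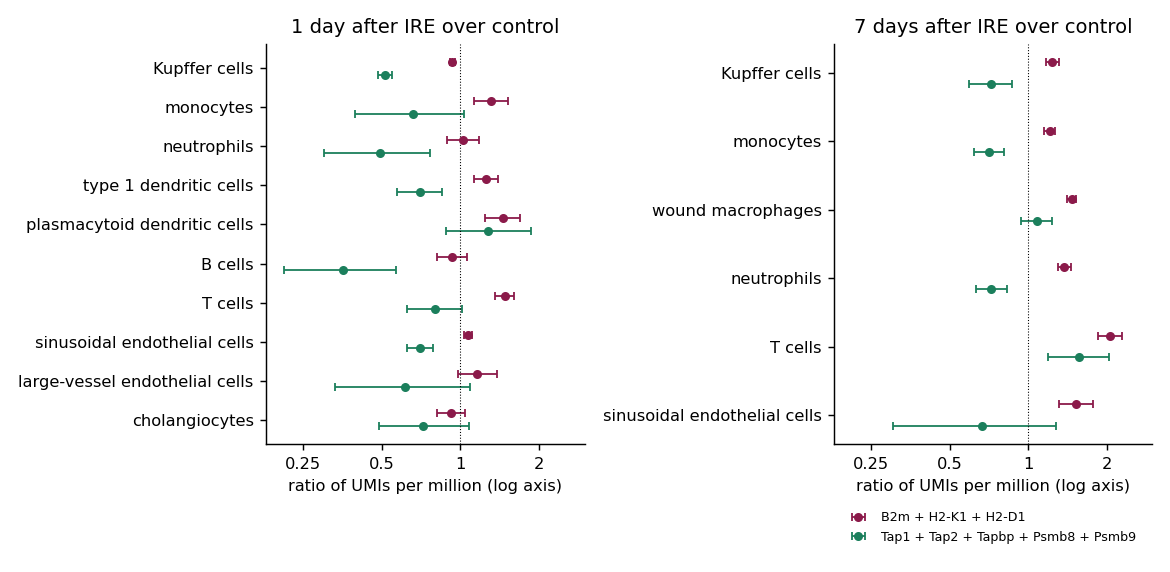
Ratios to control of the summed chain genes and the summed processing genes in each class with at least 20 cells in both libraries, 1 day (left) and 7 days (right) after IRE, on a log axis with 95% intervals that cover counting error only; the dotted line marks 1. The chain ratio lies above the processing ratio in every class shown.

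At 7 days most cells of the wound were neutrophils, monocytes and macrophages. Neutrophils, the first blood cells to reach a wound, held 6430 UPM of the chains in the control library and 8859 at 7 days, a ratio of 1.38 (1.30 to 1.46), and 1168 and 841 of the processing genes, a ratio of 0.719 (0.628 to 0.826). B2m at 1.46 (1.34 to 1.59) and H2-D1 at 1.45 (1.33 to 1.59) were higher, H2-K1 stood at 1.03 (0.904 to 1.17) and fell to 0.816 without mitochondrial UMIs in the denominator, and Psmb9 was at 0.576 (0.426 to 0.789). Psmb8 stood at 0.690 (0.561 to 0.853), and at 1.00 over barcodes with at least 500 genes. Of the 8 members measured, 5 were below 1, beside 33.7% of 3372 genes, and none at least 2-fold lower, beside 4.89%, and the median log2 ratio was -0.13 for the members and 0.35 for all genes. Neutrophils held 0.182 (0.159 to 0.207) processing UMIs per chain UMI in the control library and 0.0949 (0.0886 to 0.102) at 7 days. In the same 2 libraries the marker Retnlg was seen in 82.9% and 84.4% of gated neutrophils, Camp in 10.6% and 1.07% and Il1r2 in 20% and 41.3%. Outside the gate Retnlg was seen in 5.74% and 35.0% of cells. The gate thus held partly unlike cells, and the part of this in the ratios was not tested.

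Monocytes, the blood precursors of macrophages, showed the same split at 7 days, with chains at 1.21 (1.15 to 1.27) and processing genes at 0.707 (0.617 to 0.807). In monocytes the direction of the chains depended on the denominator, since their ratio was 0.974 and that of H2-D1 0.947 without mitochondrial UMIs, which took 22.2% of the UMIs of control monocytes and 3.39% at 7 days. Of 8 members, 6 were below 1, beside 36.5% of 2317 genes. The monocyte gate also held partly unlike cells in the control and 7 day libraries. Ly6c2 was seen in 86.5% and 59.8% of them, Ccr2 in 88.2% and 78.6%, F13a1 in 39.9% and 61.2% and Vcan in 20.3% and 45.1%. The part of this in the monocyte ratios was not tested. Wound macrophages held 3089 and 5290 UPM of B2m, a ratio of 1.71 (1.62 to 1.81), and their chains stood at 1.47 (1.41 to 1.53) and their processing genes at 1.08 (0.941 to 1.24). There 2 of 7 members were below 1, beside 44.8% of 3281 genes. The unlike marker content of that gate in the 2 libraries, given above, moves with these ratios, and its part in them was not tested.

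T cells, which read class I molecules and carry them as well, had chain ratios of 1.48 (1.36 to 1.61) at 1 day and 2.06 (1.85 to 2.28) at 7 days. The first did not differ beyond its interval from that of plasmacytoid dendritic cells, 1.45 (1.24 to 1.70), and the second was the highest of 6 classes. B2m went from 2973 UPM in the control library to 4964 at 1 day and 6602 at 7 days, H2-K1 from 1767 to 2117 and 3630, and H2-D1 from 1983 to 2883 and 3598. In all 3 the control library was lowest and the 7 day library highest, and the 7 day ratios were 2.22 (1.90 to 2.59), 2.05 (1.66 to 2.52) and 1.81 (1.47 to 2.22). B2m and H2-K1, 2 of 6 members measured, were at least 2-fold higher at 7 days, beside 11.8% of 844 genes, and none of the 6 was below 1, beside 41.1%. Mitochondrial transcripts took 19.6% of the UMIs of control T cells and 3.76% at 7 days. Without them in the denominator, neither B2m nor H2-K1 reached 2-fold. At 1 day 2 of 6 members were below 1, beside 65.5% of 985 genes, and Psmb8 was at 0.587 (0.395 to 0.849). The processing genes of T cells stood at 0.800 (0.626 to 1.01) at 1 day and at 1.57 (1.19 to 2.04) at 7 days. T cells and wound macrophages were the 2 of 6 classes with a processing ratio above 1 at 7 days. The gate held 330, 135 and 65 T cells, and Cd8b1, a chain of the CD8 receptor, was seen in 18.2%, 11.9% and 56.9% of them, so that the kinds of T cells differed between libraries, and the part of this in the ratios was not tested. The chain levels in barcodes with under 200 genes also went up over these libraries, from 4219 to 5824 and 7980 UPM.

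H2-D1 gained on H2-K1 in several classes and not in T cells. At 7 days Kupffer cells held 2.22 (1.88 to 2.63) H2-D1 UMIs per H2-K1 UMI, neutrophils 2.86 (2.69 to 3.04), monocytes 2.14 (1.89 to 2.42) and sinusoidal endothelial cells 2.75 (1.62 to 4.84), where the control library had 1.54 (1.47 to 1.61), 2.02 (1.75 to 2.34), 1.65 (1.51 to 1.80) and 1.38 (1.27 to 1.49). T cells held 1.12 (0.991 to 1.27) in the control library and 0.991 (0.759 to 1.29) at 7 days, which did not differ beyond their intervals. Barcodes with under 200 genes at 7 days held 3422 UPM of H2-D1 and 1187 of H2-K1, so that H2-D1 led in them as well.

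**Figure D4:**
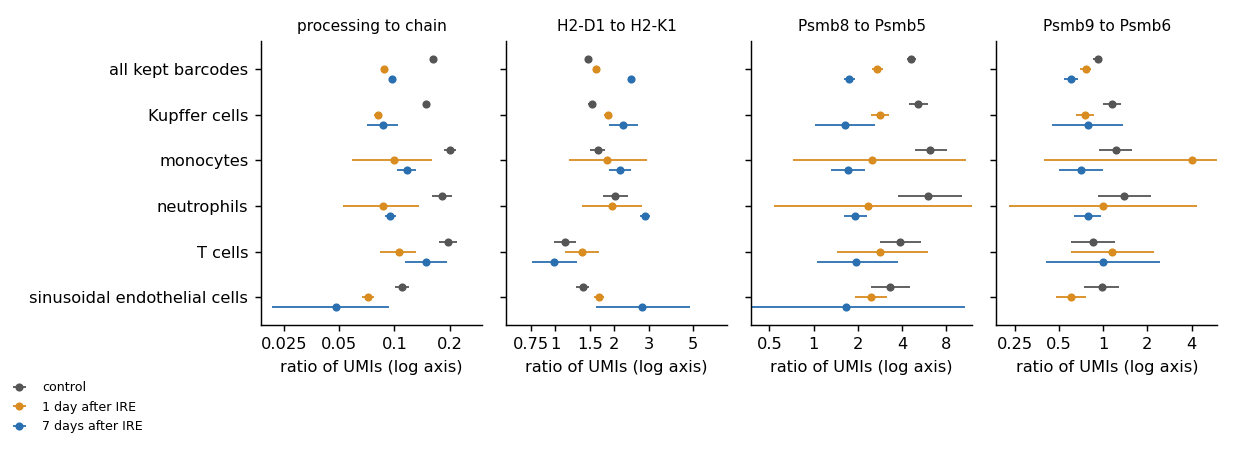
UMIs of one gene or group per UMI of another, for all kept barcodes and 5 classes, on log axes with 95% intervals, some of which run past the edge of a panel. Processing genes per chain UMI are higher in the control library than in both IRE libraries for all kept barcodes and each class, and H2-D1 per H2-K1 is highest at 7 days except in T cells; Psmb9 has no 7 day point in sinusoidal endothelial cells.

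The immunoproteasome subunits were compared with the constitutive subunits whose places they take, as UMIs of one per UMI of the other, a quantity that does not depend on the denominator but does depend on the length and capture of each transcript. Psmb8 per Psmb5 went from 4.61 (4.31 to 4.93) in the control library to 2.71 (2.48 to 2.98) at 1 day and 1.74 (1.60 to 1.91) at 7 days. Psmb9 per Psmb6 went from 0.917 (0.860 to 0.978) to 0.764 (0.700 to 0.832) and 0.608 (0.544 to 0.679), and Psmb10 per Psmb7, the remaining pair, from 10.8 (9.41 to 12.5) to 8.01 (6.63 to 9.74) and 4.95 (4.04 to 6.10). All 3 pairs thus shifted in the same order, control, 1 day, 7 days, towards the constitutive subunit. At 1 day both kinds of subunit were lower than in control, with Psmb5 at 0.803 (0.726 to 0.887), while at 7 days Psmb5 was 2.00 (1.82 to 2.20) times the control and Psmb8 was lower.

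Within classes, Psmb8 per Psmb5 in Kupffer cells was 5.14 (4.45 to 5.97), 2.82 (2.44 to 3.28) and 1.62 (1.03 to 2.61), and in neutrophils it was 6.00 (3.72 to 10.2) in the control library and 1.92 (1.62 to 2.29) at 7 days. Monocytes had 6.20 (4.85 to 8.02) and 1.70 (1.30 to 2.23) at the same times. The order seen over all cells did not hold for every pair within classes. In Kupffer cells Psmb9 per Psmb6 was 1.15 (1.00 to 1.32), 0.757 (0.658 to 0.870) and 0.788 (0.453 to 1.36). Their Psmb10 per Psmb7 was 14.2 (10.3 to 20.2), 8.58 (6.35 to 11.8) and 14.5 (3.67 to 125), the last from 2 Psmb7 UMIs. In T cells Psmb8 per Psmb5 was 3.86, 2.83 and 1.94, but Psmb9 per Psmb6 was 0.857, 1.15 and 1.00, all with overlapping intervals. Among classes with at least 20 Psmb5 UMIs in the control library, type 1 dendritic cells had the highest Psmb8 per Psmb5, 11.0 (7.17 to 17.7). That interval overlapped those of neutrophils and monocytes. Type 1 dendritic cells were also highest for Psmb9 per Psmb6, with 3.12 (2.17 to 4.58). Their Psmb10 per Psmb7, 6.00 (2.67 to 15.8), was below that of monocytes, 23.5 (12.6 to 49.6), and of Kupffer cells, though the intervals overlapped. Wound macrophages and mesenchymal cells leaned to the constitutive subunit for Psmb9, with 0.216 (0.167 to 0.276) and 0.179 (0.114 to 0.271) Psmb9 per Psmb6.

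The other genes of the pathway were described by lists chosen with earlier results of these data known. Of 9 genes for loading and trimming, 8 had a library ratio below 1 at 1 day, beside 46.8% of all genes, with a median log2 ratio of -0.30, where that of all genes was 0.04, led by Psme2 at 0.507 (0.477 to 0.538), Psmb10 at 0.550 (0.510 to 0.593) and Psme1 at 0.656 (0.621 to 0.691), which encode the proteasome activator and the remaining immunoproteasome subunit. At 7 days 7 of these 9 were below 1, beside 60.0% of all genes, with a median of -0.20, where that of all genes was -0.21, while calreticulin, encoded by Calr, a chaperone of the loading complex, stood at 1.37 (1.32 to 1.42). All 9 genes listed for the rest of the proteasome were below 1 at 1 day with a median of -0.39. At 7 days 2 of the 9 were, with a median of 0.17, beside the same shares of 46.8% and 60.0%. Among these 9 only Psmb5, Psmb6 and Psmb7 are the subunits whose places are taken. Their ratios were 0.803, 0.802 and 0.744 at 1 day and 2.00, 1.13 and 1.39 at 7 days. The immunoproteasome subunits and the subunits they replace were thus both low at 1 day and apart at 7 days.

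Of the other class I heavy chains, 13 of 17 could be compared at 1 day, of which 3 were below 1, beside 46.8% of all genes, and 4 at least 2-fold higher, beside 12.2%, with a median log2 ratio of 0.43. The highest was H2-Q10, a secreted heavy chain made by hepatocytes, which went from 37.9 UPM in the control library to 499 at 1 day and 82.1 at 7 days, ratios of 13.2 (11.7 to 14.8) and 2.16 (1.82 to 2.56). Transcripts of secreted hepatocyte proteins took 0.245%, 3.72% and 0.109% of all UMIs in the same libraries. Cd1d1, which presents lipids to natural killer T cells, stood at 2.47 (2.10 to 2.92) and 0.277 (0.174 to 0.423), and Fcgrt, the neonatal Fc receptor, at 2.06 (1.91 to 2.21) and 0.234 (0.191 to 0.285). At 7 days 9 of 12 were below 1, beside 60.0% of all genes, 3 at least 2-fold lower, beside 21.8%, and 1 at least 2-fold higher, beside 8.79%, with a median of -0.24, so that these counts lay near the background.

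Of 13 regulators of class I transcription, 10 were below 1 at 1 day, beside 46.8% of all genes, with a median log2 ratio of -0.22 and with Irf1, a transcription factor of the interferon response, at 0.657 (0.597 to 0.721). At 7 days 7 of the 13 were below 1, near the 60.0% of all genes, with Irf1 at 0.680 (0.602 to 0.767) and Rfx5, a subunit of the X box factor, at 0.319 (0.148 to 0.618) from 82 and 10 UMIs. Of 12 interferon gamma genes compared at 1 day, 10 were below 1, beside 46.8% of all genes, and 2 at least 2-fold lower, beside 5.86%, with Ifng itself at 0.429 (0.282 to 0.637) from 104 and 34 UMIs, Gbp2 at 0.369 (0.330 to 0.411) and the chemokine Cxcl9 at 0.526 (0.486 to 0.569). At 7 days 6 of 12 were below 1, near the 60.0% of all genes, with Cxcl9 at 0.0901 (0.0706 to 0.113) and Cxcl10 at 4.16 (3.75 to 4.60). Genes of the type I interferon system, here its receptors and interferon-stimulated genes, took another course. At 1 day 3 of 11 were below 1, beside 46.8% of all genes, with a median log2 ratio of 0.31. At 7 days none of 11 was below 1, beside 60.0%, and 10 were at least 2-fold higher, beside 8.79%. The median at 7 days was 2.32. Ifnb1, the only type I interferon listed, had 0, 0 and 2 UMIs in the control, 1 day and 7 day libraries and was not compared. The libraries thus differed in interferon-stimulated transcripts at 7 days, at a time when the processing genes stood at 0.784 times the control as a whole.

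Within the classes of the 7 day library, B2m was higher in cells with at least 3 UMIs of interferon-stimulated transcripts than in cells with 0. This held in neutrophils, wound macrophages and monocytes. The summed processing genes were higher as well in neutrophils and wound macrophages, while their interval in monocytes held 1. The intervals of most single processing genes in these classes held 1. Those of Psmb8 and Psmb9 in neutrophils and wound macrophages, and of Tapbp in neutrophils, lay above 1. Cells were grouped by their UMIs of 9 interferon-stimulated transcripts (Isg15, Ifit1, Ifit2, Ifit3, Rsad2, Oasl1, Usp18, Cmpk2 and Mx1) after thinning to 300 UMIs. Such a group is a range of a count and not a cell type. Of 1938 neutrophils, 1244 had 0, 525 had 1 to 2 and 169, or 8.72%, had at least 3, with 142 and 67 cells at the values of 2 and 3 on both sides of the limit. B2m went over these groups from 3432 to 4286 and 5976 UPM, and the ratio of the highest to the lowest group was 1.74 (1.53 to 1.97). H2-D1 went from 3376 to 3740 and 4497, a ratio of 1.33 (1.15 to 1.53), and H2-K1 from 1117 to 1397 and 1676, a ratio of 1.50 (1.17 to 1.90). The 5 processing genes went from 643 to 895 and 1361, a ratio of 2.12 (1.60 to 2.78), with Psmb9 at 2.94 (1.54 to 5.38). The order was the same for all 4 quantities. The level of the processing genes in all control neutrophils, 1168, lay within the interval of the highest group, 1059 to 1722. However, the control value was taken without thinning, so that the measures are unlike. Mitochondrial transcripts also took 24.7% of the UMIs of neutrophils in the control library and 5.06% at 7 days.

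Wound macrophages had 556, 188 and 75 cells in these groups, with B2m at 4113, 6808 and 8356 UPM, a ratio of 2.03 (1.72 to 2.39), and processing genes at 528, 1028 and 1244, a ratio of 2.36 (1.48 to 3.65). Monocytes had 275, 81 and 51 cells, with B2m at 4400, 5967 and 7190 UPM, a ratio of 1.63 (1.31 to 2.03), while the interval of their processing ratio, 1.53 (0.919 to 2.46), held 1. In the control library 0.984% of neutrophils, 0.906% of wound macrophages and 0.552% of monocytes had at least 3 of these UMIs, too few to be compared.

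**Figure D5:**
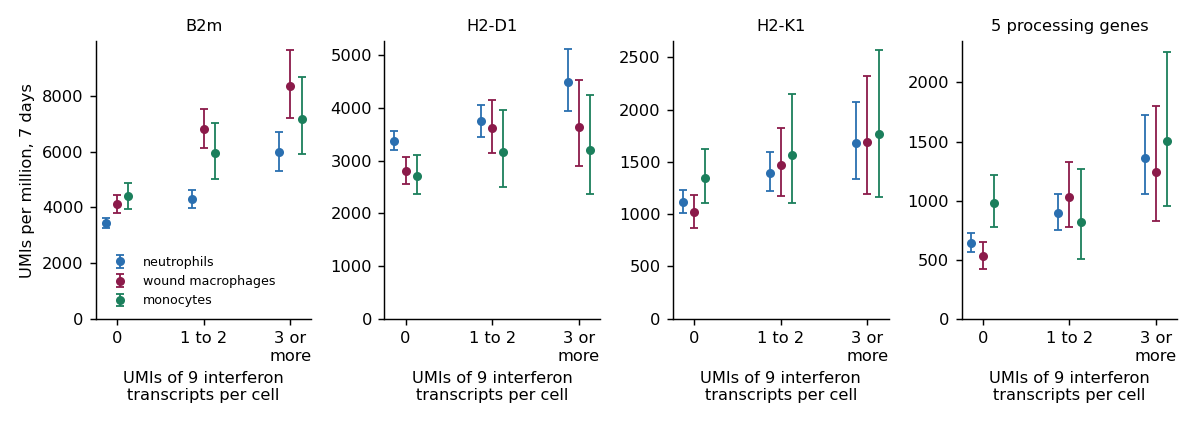
Levels of B2m, H2-D1, H2-K1 and the 5 processing genes in neutrophils, wound macrophages and monocytes of the 7 day library, by UMIs of 9 interferon-stimulated transcripts per cell after thinning to 300 UMIs, with exact Poisson 95% intervals. Neutrophils with 3 or more lie above neutrophils with 0 in all 4 panels.

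Across the 32 class and library units with at least 20 cells, the closest pairs of members lay within the chains and within the processing genes. On log2 levels with a pseudocount of 10 UPM, Psmb8 and Psmb9 had the highest Pearson correlation of any pair of members, 0.860, followed by B2m and H2-D1 at 0.767. Pairs of a chain and a processing gene ranged from 0.030 for B2m and Tap2 to 0.426 for H2-K1 and Tap1. The latter was near the 0.465 of H2-K1 and H2-D1 and above the 0.238 of Tap2 and Tapbp, both pairs within a group. H2-D1 and Tap1 had 0.083 and B2m and Nlrc5 -0.020. Members were then left out of the ranking, and among 4722 other genes with at least 500 UMIs those most like B2m were Lfng at 0.648, Atp1b3 at 0.641, Ifit2 at 0.610, Psmb2 at 0.602 and Gng5 at 0.601. For H2-K1 they were H2-Q7 at 0.656, Ccl5 at 0.547, H2-T23 at 0.540, Gbp4 at 0.497 and Taok2 at 0.487, of which H2-Q7 and H2-T23 are class I genes that may share its reads. For H2-D1 they were Msn at 0.729, Lfng at 0.712, Nfkbia at 0.683, Ddx5 at 0.666 and Sat1 at 0.638. For the summed processing genes they were Fau at 0.833, Tmsb4x at 0.810, Psme2 at 0.774, Capzb at 0.763 and Cdc42se1 at 0.761. The units of a library share its depth and its free RNA. Small units also held few UMIs of the rarer members, such as 1 of Nlrc5 and 2 of Tap2 in neutrophils at 1 day. Counting error thus weighs on the low values of these genes, and all of these correlations are a description.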

How the data were processed

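The authors prepared 3 Drop-seq libraries of adult mouse liver, 1 per condition, each pooled from 3 livers, and deposited UMI counts per gene and barcode without normalization. The submitters' processing notes name STAR 2.5.2a. The file headers give a minimum mapping quality of 10, merging of UMIs at an edit distance of 1 and sense-strand reads in coding and untranslated bases. The genome build of the counts was not settled from the sources used here, since the notes name a human build, so that only the RefSeq promoter windows carry coordinates. Barcodes with as few as 11 genes were present although the headers set a minimum of 200, and those with under 200 were left out here.

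Groups were taken from the sample labels. Levels were UMIs per 1000000 UMIs (UPM) of the kept barcodes of a library or class. Exact Poisson, conditional and binomial 95% intervals were computed with SciPy 1.17.1 in Python 3.11.15 with NumPy 2.4.6 and pandas 2.3.3, and figures with Matplotlib 3.10.9. The interval code was tested on simulated data. Classes of at least 20 cells were gated on markers of 17 classes, a tie between classes left a barcode ungated (304, 514 and 523 barcodes), and hepatocytes were otherwise ungated barcodes with at least 20% secretory transcripts. Doublets were kept in the values given. Genes entered a comparison with at least 50 UMIs over both libraries. The members, gene lists, markers and motifs were chosen with earlier results of these data known. The genes named were the 9 members, the genes of the pathway lists with at least 50 UMIs over the libraries compared, and the 5 genes most correlated with B2m, H2-K1, H2-D1 and the summed processing genes over class and library units. Alternatives changed the gene minimum per barcode, the denominator, the scaling, the gates, the depth of barcodes left out and the class weights. Leaving out barcodes found in more than 1 library was added after the data were seen. With 1 library per condition, no library could be left out.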

Additional observations from a re-analysis of the deposited data

Results flagged for a closer look

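At 1 day after IRE, the levels of class I chains went in opposite directions in some classes, with intervals that lay on opposite sides of 1. B2m in T cells was 1.67 times its control level and in B cells 0.793 times. H2-K1 in T cells was 1.20 times its control level and in Kupffer cells 0.830 times. These differences between classes were not tested, since each class has 1 library per condition. B and T cells were few, with 152 and 95 B cells and 330 and 135 T cells in the control and 1 day libraries.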

How the results depend on the processing

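Of 92 alternative values of the summed levels and subunit ratios, 59 stayed within the counting interval of the value given, 32 moved out of it and 1 changed direction, and of 332 values of single members 266 stayed, 63 moved and 3 changed direction, where a change of direction was counted only for values whose own interval did not hold 1. Without mitochondrial UMIs in the denominator, the chain ratio in monocytes at 7 days was 0.974 and that of H2-D1 there 0.947. With classes weighted by their control shares, H2-K1 at 1 day was 0.945, and over barcodes with at least 500 genes Psmb8 in neutrophils at 7 days was 1.00. Chain ratios at 1 day were 1.13 over barcodes with at least 500 genes, 1.13 without mitochondrial UMIs, 1.18 with median-of-ratios size factors and 1.06 with weighted classes. At 7 days they were 1.35 over every barcode, 1.09 without mitochondrial UMIs, 1.24 with size factors, 1.28 without the 5% of barcodes with most UMIs and 1.35 with weighted classes. Processing ratios were 0.637 at 1 day with size factors, and at 7 days 0.868 over barcodes with at least 500 genes, 0.650 without mitochondrial UMIs, 0.744 with size factors and 0.752 without the deepest 5%. In Kupffer cells at 1 day the chains were 0.986 with at least 3 markers and 0.978 without mitochondrial UMIs. At 7 days, barcodes with at least 500 genes gave chains of 1.22 in neutrophils, 1.13 in monocytes and 1.60 in wound macrophages and processing genes of 0.885 in neutrophils. Leaving out mitochondrial UMIs gave chains of 1.09 in neutrophils, 1.32 in wound macrophages and 1.72 in T cells, and processing genes of 0.570 in neutrophils and 0.569 in monocytes. A gate of at least 3 markers gave chains of 1.08 in monocytes and 1.65 in wound macrophages. Over barcodes with at least 500 genes, Psmb8 per Psmb5 was 3.90 in the control library, Psmb9 per Psmb6 was 0.770 and 0.606 and Psmb10 per Psmb7 was 9.32 and 6.30 in the control and 1 day libraries. The cause of these changes was not tested. Leaving out barcodes shared between libraries, chosen after the data were seen, moved none of its 22 values beyond these limits. No paired analysis was possible because each condition has 1 library. Depth limited Nlrc5, with 67 to 257 UMIs per library, and every class of under 100 cells.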
